A study of Mus musculus with 15 samples.

Results

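Guanylate-binding proteins (Gbp) and immunity-related GTPases (IRG) are large cytoplasmic GTP-hydrolysing proteins, and 10 of their genes are described here in the distal colon of mice. They are Gbp2, Gbp3, Gbp4, Gbp6, Gbp7, Igtp, Irgm1, Irgm2, Iigp1 and Tgtp2, chosen by symbol as rows of the deposited count tables. All 10 were found among the 12897 genes listed in any table, and 9 were listed with every group. Gbp4 was not listed with the treated Irf1-/- mutants, and it has no value there.

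RNA-seq was performed on 15 colons, 3 mice in each of 5 groups, all labelled as strain C57BL/6 (B6; C57BL/6J in the methods). Irf1-/- mutants, deficient for the transcription factor Irf1, and wildtype B6 mice were studied untreated and on day 26 (D26) of a colitis-associated cancer protocol, which mice of this study entered at 8 to 10 weeks of age. On D1 the treated mice were injected with azoxymethane (AOM, 7 mg/kg), a carcinogen of the colon, and from D8 to D11 they drank 2% dextran sulfate (DSS), which injures the colonic epithelium. The groups were untreated wildtype mice in 2 sets (control set 1 and control set 2), wildtype mice at D26, untreated Irf1-/- mutants, and Irf1-/- mutants at D26. Neither the labels nor the methods tie the 2 control sets to a date, litter or run, and the sex of the mice is not given. Xist, which is transcribed from the inactive X chromosome, was at 321 to 3729 CPM in the 9 untreated mice. It was at 25.2, 5.97 and 2328 CPM in treated wildtype mice and at 11.6, 1802 and 888 CPM in treated mutants, so that it moved with treatment in part.

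Interferon gamma induces genes, Irf1 among them, through gamma-activated sites (GAS) in their promoters. Irf1 then binds interferon response elements (here IRF elements) in the promoters of Gbp and IRG genes. The proteins collect on the vacuoles of intracellular bacteria and parasites. Gbps and the effector IRGs, Iigp1 and the Tgtp proteins, damage those membranes and expose the content to inflammasomes and autophagy. Irgm1, Irgm2 and Igtp (Irgm3) sit on the cell's own membranes and keep the effector IRGs inactive there. In the gut these genes are on at a low level in health, and both epithelial and immune cells can express them.

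The promoters are shown first because the genotype compared here is the loss of a factor that reads the IRF element. RefSeq promoter windows (GRCm38.p6, 250 bases before to 50 after a gene start) were given for 7 of the 10 genes in 8 windows, 2 of them for Gbp3. They were searched on both strands for GAAANNGAAA as an IRF element and for TTCNNNGAA as a GAS. Every one of the 7 genes had an IRF element in a window, against 3.44% of 32851 windows of all genes. A GAS was present for 4 of them (Gbp7, Igtp, Irgm2 and Tgtp2), against 8.3% of all windows, and 0.454% of all windows held both motifs. In the stretches below, read on the strand of the gene, capitals mark the IRF element (printed as its reverse complement where it lies on the other strand) and the GAS.
Gbp2, chr3:142620592-142620625, + strand: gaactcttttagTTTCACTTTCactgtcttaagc
Gbp3, chr3:142559987-142560026, + strand: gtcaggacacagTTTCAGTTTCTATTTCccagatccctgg
Gbp7, chr3:142530218-142530304, + strand: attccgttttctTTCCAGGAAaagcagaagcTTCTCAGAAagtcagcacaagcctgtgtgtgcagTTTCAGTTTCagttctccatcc
Irgm1, chr11:48871423-48871462, - strand: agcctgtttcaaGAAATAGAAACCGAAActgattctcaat
Igtp, chr11:58199499-58199543, + strand: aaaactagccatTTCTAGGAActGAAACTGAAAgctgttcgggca
Irgm2, chr11:58214890-58214934, + strand: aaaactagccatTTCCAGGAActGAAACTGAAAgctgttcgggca
Tgtp2, chr11:49064261-49064305, - strand: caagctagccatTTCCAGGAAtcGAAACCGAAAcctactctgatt
Gm12185, chr11:48927236-48927280, - strand: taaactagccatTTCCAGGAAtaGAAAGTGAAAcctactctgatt
The IRF element began 59 bases upstream of the annotated start in Gbp2, 45 and 39 (overlapping) in Gbp3, and 53 in Gbp7. It began 30 and 24 bases upstream (overlapping) in Irgm1, 34 in Igtp, 64 in Irgm2 and 70 in Tgtp2. The promoters of Igtp, Irgm2 and Tgtp2 shared 1 layout, with a GAS that ended 2 bases before the IRF element. Gm12185, an IRG family gene that is not one of the 10, had the same layout and is printed because its level behaved differently (below). The matches are a description of these windows and do not show binding in the colon.

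Values are CPM (counts scaled to the size of the library), normalised for library composition over the genes listed with all groups, with 22266607 to 22869853 reads counted per library. The lowest value of any of the 10 genes, Tgtp2 in an untreated Irf1-/- mutant, rested on 40 reads. Between genes, levels are compared as CPM per kilobase of exon. On that scale Gbp2 and Irgm2 were the highest in untreated wildtype colon, Gbp2 at 16.1 ± 0.79 (SD, n = 3) in control set 1 and 16.2 ± 3.93 (n = 3) in set 2, and Irgm2 at 14.2 ± 0.33 and 13.8 ± 1.5. Gbp2 was above Irgm2 by more than their spread in control set 1, and within it in set 2. Irgm1 (5.97 ± 0.14), Igtp (6.19 ± 0.38), Gbp7 (4.95 ± 0.23), Tgtp2 (3.81 ± 0.82) and Gbp3 (3.40 ± 0.39) followed in control set 1, with neighbours Igtp and Irgm1, and Tgtp2 and Gbp3, within their spread. Gbp6 (2.20 ± 0.32), Iigp1 (1.81 ± 0.40) and Gbp4 (1.72 ± 0.36) were lowest and overlapped each other. In untreated Irf1-/- mutants the order was different. Irgm2 was highest at 10.7 ± 0.86, above Irgm1 (4.71 ± 0.79), Igtp (3.90 ± 1.66) and Gbp2 (3.11 ± 0.36) on the same scale.

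**Figure D1:**
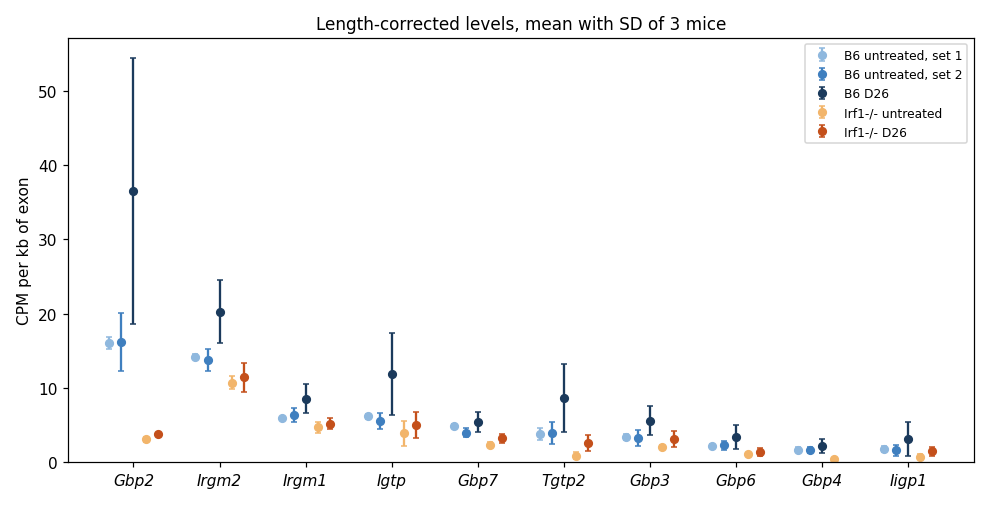
CPM per kilobase of exon (y axis) for the 10 GTPase genes, ordered by their level in control set 2, in the 5 groups; points are means and bars the SD of 3 mice, and Gbp4 has no point for treated Irf1-/- mutants. Gbp2 stood beside Irgm2 in untreated wildtype colon (16.2 and 13.8 in control set 2) and far below it in untreated Irf1-/- mutants (3.11 and 10.7).

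The targeted gene was checked first. Irf1 CPM was 141, 128 and 130 in control set 2 and 79.4, 117 and 87.6 in untreated Irf1-/- mutants, lower without overlap (log2 fold change (FC) of -0.49 ± 0.12 (SE), adjusted p = 0.128). At D26 it was 173, 223 and 227 in wildtype mice and 108, 123 and 100 in mutants (log2 FC of -0.93 ± 0.13, adjusted p = 0.0117). Reads on the gene were thus fewer but remained in the mutants, and a count over the whole gene does not show which exons they cover. P-values and adjusted p (Benjamini-Hochberg over all genes) are from edgeR's quasi-likelihood test, and a gene was called changed where the FC reached 1.5 and the adjusted p was under 0.01. The labels name 3 mice a group, and p-values measure the spread between these mice. In homogenised colon, fewer cells of a type and less RNA per cell cannot be told apart.

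At steady state all 10 genes had a lower mean in untreated Irf1-/- mutants than in control set 2, and 2 of them, Gbp2 and Gbp4, were called downregulated. Over all genes 0.318% were called downregulated in this comparison. At an unadjusted p under 0.05, 9 of 10 were lower, against 5.23% of all genes, and 7 of 10 were lower without overlap between the groups, against 7.61%. The median log2 FC of the 10 was -0.90, beside 0.00 over all genes. Gbp4 and Tgtp2 passed the authors' filter on low values through the wildtype mice only, so they had to be lower in the mutants. Iigp1 was above 5 CPM in every mouse of control set 2, but at 4.13, 6.45 and 2.60 CPM in untreated mutants. For Iigp1 the filter thus favoured a lower value in the mutants. These counts and the median are descriptions that include Gbp4, Tgtp2 and Iigp1. DESeq2 called 5 of the 10 (Gbp2, Gbp4, Gbp6, Gbp7 and Tgtp2). Shares of all genes called are edgeR's throughout, and none is given for DESeq2 or voom. Leaving out 1 mouse at a time, 1 or 2 of the genes were called and 7 to 9 stayed at an unadjusted p under 0.05. B and plasma cell markers also moved in this comparison, with 7 of 7 higher in the mutants at an unadjusted p under 0.05, none called by edgeR, DESeq2 or voom, and a median log2 FC of 1.14. Their summed CPM was 243 to 277 in control set 2, 318 to 446 in untreated mutants and 607 to 707 in control set 1, and all 7 were lower in set 2 than in set 1 (median log2 FC of -1.15), with Igj, the joining chain of secreted antibodies, called. Their part in the GTPase differences was not tested, and with control set 1 as controls 5 of the 10 GTPase genes were called lower.

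Among the guanylate-binding proteins, Gbp2, which coats bacterial and parasite vacuoles, had the largest change. Its CPM was 31.1, 50.9 and 40.2 in control set 2 and 8.89, 7.30 and 7.33 in untreated Irf1-/- mutants. The 3 mutants were within a narrow range at 19.3% of the mean of the 6 untreated wildtype mice, and every wildtype mouse was higher. Gbp2 fell 5.19-fold (log2 FC of -2.38 ± 0.18, adjusted p = 0.000143) and stayed called when any 1 of the 6 mice was left out.

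Gbp4 was listed at 11.3, 16.2 and 9.82 CPM in control set 2 and at 3.73, 3.78 and 3.88 CPM in untreated mutants, which did not overlap. It fell 3.27-fold (log2 FC of -1.71 ± 0.20, adjusted p = 0.00244). The call did not hold without mutant mouse 1, 2 or 3 (adjusted p = 0.017, 0.0181 and 0.0149). Gbp6 (log2 FC of -1.06 ± 0.20, adjusted p = 0.0332), Gbp7 (-0.74 ± 0.14, adjusted p = 0.0389) and Gbp3 (-0.62 ± 0.22, adjusted p = 0.332) were lower without overlap but were not called. The 3 genes kept 49.0%, 53.5% and 63.7% of the untreated wildtype mean.

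Of the effector IRGs, Tgtp2 (T-cell-specific GTPase) was at 11.2, 16.1 and 7.54 CPM in control set 2 and at 1.78, 4.09 and 2.29 CPM in untreated Irf1-/- mutants. The groups were well apart, with log2 FC of -2.09 ± 0.33, but the adjusted p of 0.0145 was above the threshold. Tgtp2 kept 23.9% of the wildtype mean, a share near that of Gbp2. Iigp1, which disrupts parasite vacuoles, was at 8.07, 14.3 and 6.21 CPM against 4.13, 6.45 and 2.60 CPM. One Irf1-/- value exceeded the lowest wildtype value, and the log2 FC was -1.12 ± 0.35 (adjusted p = 0.244).

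The IRGM regulators differed least. Irgm2 was at 54.3, 54.0 and 44.6 CPM in control set 2 and at 38.6, 43.1 and 36.9 CPM in untreated mutants, not overlapping by a small margin (log2 FC of -0.37 ± 0.092, adjusted p = 0.128). Irgm1 (log2 FC of -0.44 ± 0.14, adjusted p = 0.24) and Igtp (-0.51 ± 0.26, adjusted p = 0.556) overlapped. Irgm1, Irgm2 and Igtp kept 76.3%, 76.4% and 66.4% of the untreated wildtype mean. Irgm2, Igtp and Tgtp2 share the promoter layout shown above, and their log2 FC was -0.37, -0.51 and -2.09.

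**Figure D2:**
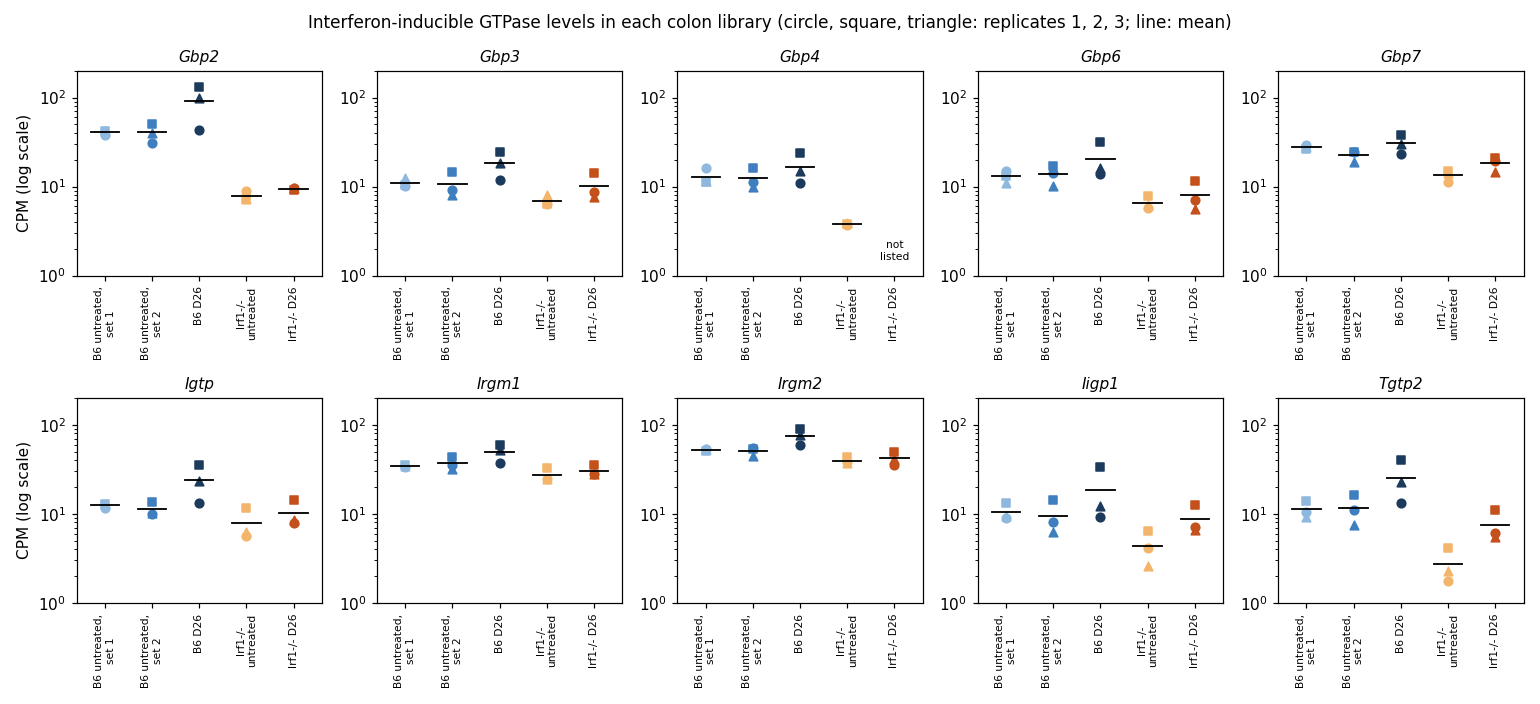
CPM on a log scale (y axis) of each GTPase gene in each of the 15 libraries, by group (x axis); each symbol is 1 mouse (circle, square and triangle for replicates 1, 2 and 3) and the line is the group mean. The 6 Irf1-/- mice had 7.30 to 9.68 CPM of Gbp2, below the lowest of the 9 wildtype mice at 31.1. From untreated mutants to treated wildtype mice, group means ran from 27.3 to 49.8 CPM for Irgm1 and from 39.5 to 74.9 CPM for Irgm2.

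A within-library measure gave the same contrast without any scaling between libraries. For every 100 reads on Irgm2, untreated wildtype mice had 57.3 to 94.2 reads on Gbp2, and wildtype mice at D26 had 73.5, 148 and 131. Untreated Irf1-/- mutants had 23.0, 16.9 and 19.8, and treated mutants 27.1, 18.3 and 23.4. For Tgtp2 the numbers per 100 Irgm2 reads were 16.9 to 29.8 in untreated wildtype mice, 4.61, 9.50 and 6.21 in untreated mutants, and 17.0, 22.4 and 13.4 in treated mutants. Tgtp2 thus overlapped the untreated wildtype range in treated mutants and Gbp2 did not. Among the mutants Tgtp2 reached the authors' filter on low values only through the treated mice, so it had to be higher in them. Gbp2 was above that filter in every mutant, so this contrast between the genes is a description. These pairs of genes were chosen after their values were seen, and no test was made.

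In wildtype mice the 10 genes were all higher at D26 than in control set 1, by a log2 FC of 0.14 (Gbp7) to 1.19 (Gbp2 and Tgtp2), and none was called upregulated by edgeR. At an unadjusted p under 0.05, 7 of 10 were higher, and DESeq2 called 1, Igtp. All genes had 0.0316% called upregulated, 14.7% higher at an unadjusted p under 0.05 and 16.4% higher without overlap, against 4 of the 10 without overlap (Gbp2, Igtp, Irgm1 and Irgm2). The median log2 FC of the 10 was 0.70, beside 0.01 over all genes.

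The treated wildtype mice were far apart. Gbp2 was at 38.3, 41.8 and 41.6 CPM in control set 1 and at 43.3, 132 and 100 CPM at D26. Mouse 1 was above control set 1 but within the range of set 2, mouse 2 was far above both, and mouse 3 lay between them. Tgtp2 followed with 10.5, 13.9 and 9.23 CPM untreated against 13.3, 39.9 and 22.9 CPM, and Igtp with 11.6, 12.9 and 13.0 CPM against 13.2, 35.3 and 23.6 CPM.

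Of the 9 genes listed with every group, all 9 were lowest in treated wildtype mouse 1 and all 9 were highest in mouse 2. In the fit of all 6 mice log2 FC and adjusted p were 1.19 ± 0.32 and 0.0534 for Gbp2, 1.19 ± 0.35 and 0.0642 for Tgtp2, and 0.95 ± 0.29 and 0.074 for Igtp. Irgm2 (0.52 ± 0.14, adjusted p = 0.0502) and Irgm1 (0.53 ± 0.15, adjusted p = 0.0627) had smaller log2 FC with less spread. Without treated wildtype mouse 1, 4 genes were called (Gbp2, Igtp, Irgm1 and Irgm2) and Gbp2 had a log2 FC of 1.53 (adjusted p = 0.00182). Iigp1 was at 9.27, 33.4 and 12.2 CPM at D26. Mouse 2 alone thus stood above the untreated wildtype range (6.21 to 14.3), and the log2 FC of Iigp1 was 0.80 ± 0.42 (adjusted p = 0.238). Gbp7 (0.14 ± 0.16, adjusted p = 0.59) and Gbp4 (0.37 ± 0.27, adjusted p = 0.382) had the smallest log2 FC of the 10.

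Other measures moved with the treated wildtype libraries. Their log2 counts rose with the GC content of genes by 0.138 to 0.285 per 10% GC. The slope was between -0.125 and 0.0313 in the other 12 libraries. Treated mutants, at -0.0717 to 0.0313, were among these 12, so the slope also differed between treated genotypes. In treated over untreated wildtype mice, with log2 Xist as a covariate, Gbp2 had a log2 FC of 1.16 (adjusted p = 0.145) and Tgtp2 one of 0.91 (adjusted p = 0.214). After correction for GC content Gbp2 had a log2 FC of 1.25 (adjusted p = 0.0918). None of the 10 was called in either fit. Summed CPM of 14 of 16 macrophage and monocyte markers was 710 to 946 in treated wildtype mice against 531 to 698 in control set 1, and that of 8 of 8 endothelium markers 239 to 247 against 193 to 199. Of 18 T and NK lymphocyte markers only Cd4, Cd8b1 and Itgae were listed with every group, at a sum of 26.6 to 35.0 CPM against 24.0 to 29.9 CPM. Cd3e, Cd3g, Gzmb, Nkg7 and Ncr1 were among those not listed, and Ifng itself was not listed. The part of cell composition in the GTPase levels was not tested. Epithelium markers (11 of 11) summed to 11321 to 17597 CPM and smooth muscle markers (7 of 7) to 7146 to 9025 CPM over the 15 libraries, so the markers of colon wall expected from the label were present.

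In Irf1-/- mutants, treatment was followed by higher means of all 9 genes listed, with a median log2 FC of 0.37, beside 0.01 over all genes. None was called upregulated by edgeR, 4 of 9 were higher at an unadjusted p under 0.05 (Gbp3, Gbp7, Iigp1 and Tgtp2) and 3 of 9 did not overlap (Gbp2, Iigp1 and Tgtp2). All genes had 0.205% called, 10.1% higher at an unadjusted p under 0.05 and 12.2% higher without overlap. DESeq2 called 1 of the 9, Tgtp2. The filter on low values forced a higher value at D26 for Tgtp2 and favoured one for Iigp1 (below). The counts and the median are descriptions that include them.

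The effector IRGs Tgtp2 and Iigp1 were not called. Tgtp2 was at 1.78, 4.09 and 2.29 CPM untreated and at 6.04, 11.2 and 5.53 CPM at D26, 2.79-fold higher (log2 FC of 1.48 ± 0.36, adjusted p = 0.0726). Tgtp2 reached the filter on low values only through the treated mutants, so it had to be higher in them. For Iigp1 1 of 3 untreated mutants reached 5 CPM and all 3 treated ones did, so the filter also favoured a higher value at D26. Iigp1 was at 4.13, 6.45 and 2.60 CPM untreated and at 7.05, 12.5 and 6.51 CPM at D26, with the groups barely apart (log2 FC of 0.98 ± 0.35, adjusted p = 0.173).

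Gbp2 differed less, at 8.89, 7.30 and 7.33 CPM untreated and at 9.66, 9.12 and 9.68 CPM at D26 (log2 FC of 0.28 ± 0.13, adjusted p = 0.305). Gbp7 (0.45 ± 0.16, adjusted p = 0.183) and Gbp3 (0.56 ± 0.23, adjusted p = 0.24) lay between, and Irgm1 (0.15 ± 0.14) and Irgm2 (0.10 ± 0.12) had the smallest log2 FC. Leaving out 1 mouse at a time, 1 to 4 genes stayed at an unadjusted p under 0.05, and it was 1 without treated mutant mouse 2. Macrophage and monocyte markers summed to 703 to 783 CPM in treated mutants against 458 to 553 CPM in untreated ones. Endothelium markers summed to 232 to 272 CPM against 196 to 201 CPM, with 7 of 8 higher at an unadjusted p under 0.05. The part of these differences in the GTPase levels was not tested.

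**Figure D3:**
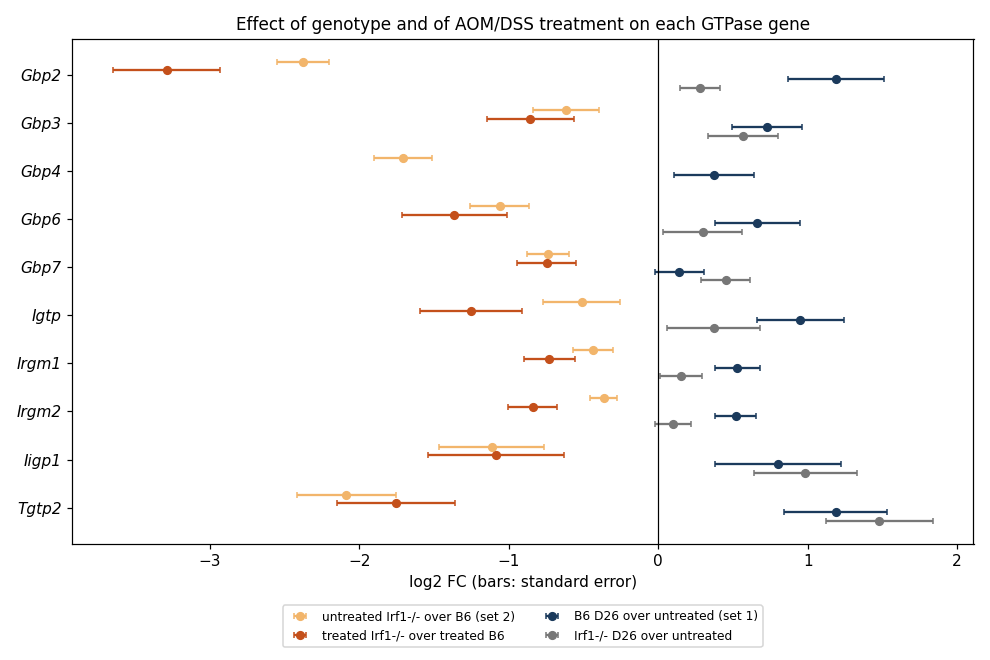
Log2 FC (x axis) of each GTPase gene in 4 comparisons: untreated and treated Irf1-/- mutants over wildtype mice, and D26 over untreated in each genotype; points are edgeR estimates and bars their standard errors. Genotype differences lie left of 0 for every gene, with Gbp2 lowest at -2.38 and -3.29. Treatment differences lie right of 0, where Tgtp2 was at 1.19 in wildtype mice and 1.48 in Irf1-/- mutants. The filter on low values forced Tgtp2 right of 0 in mutants, and Gbp4 and Tgtp2 left of 0 between untreated genotypes.

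The difference between the responses was tested directly as an interaction of genotype and treatment, and it was called for none of the 9 genes. Gbp2 had the largest, a response lower by 0.90 ± 0.42 on the log2 scale in Irf1-/- mutants (unadjusted p = 0.049, adjusted p = 0.293). It was 1 of 9 at an unadjusted p under 0.05, against 16.9% of all genes, and 0.016% of all genes were called. DESeq2 also called none. Irgm2 (-0.41 ± 0.20, adjusted p = 0.314), Irgm1 (-0.37 ± 0.23), Igtp (-0.57 ± 0.48) and Gbp6 (-0.36 ± 0.44) had estimates on the same side. Tgtp2 (0.30 ± 0.57), Gbp7 (0.31 ± 0.25) and Iigp1 (0.19 ± 0.63) had estimates on the other side, all within 2 standard errors of 0. In mutants the filter on low values forced a higher D26 value for Tgtp2 and favoured one for Iigp1. It thus pushed the estimates of Tgtp2 and Iigp1 to this side. Without treated wildtype mouse 1, the estimate for Gbp2 was -1.24 (adjusted p = 0.0241). A different induction of these genes in the 2 genotypes was not detected.

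Between treated genotypes, all 9 genes listed were lower in Irf1-/- mutants at an unadjusted p under 0.05, against 10.6% of all genes, and 1 of 9, Gbp2, was called downregulated, against 0.312%. The groups did not overlap for 6 of 9 (Gbp2, Gbp6, Gbp7, Irgm1, Irgm2 and Tgtp2), against 13% of all genes. The median log2 FC was -1.09, beside -0.01 over all genes. Leaving out 1 mouse at a time, 7 to 9 genes stayed at an unadjusted p under 0.05. This comparison uses the same treated mice as the responses above, so it is no separate evidence.

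Gbp2 was at 43.3, 132 and 100 CPM in treated wildtype mice and at 9.66, 9.12 and 9.68 CPM in treated Irf1-/- mutants. Every mutant was below every wildtype mouse, and the fold was larger than at steady state, 9.78-fold lower (log2 FC of -3.29 ± 0.36, adjusted p = 0.00355). The call held without wildtype mouse 1 (adjusted p = 1.51e-05) or 2 (0.0049) and was lost without wildtype mouse 3 (0.0198) or mutant mouse 1 (0.0232), 2 (0.0328) or 3 (0.0215). Log2 FC stayed between -3.62 and -2.93 in these fits.

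The other 8 genes were not called in treated mice. Irgm2 was at 58.9, 89.7 and 76.2 CPM in treated wildtype mice and at 35.6, 49.9 and 41.4 CPM in treated mutants, without overlap (log2 FC of -0.84 ± 0.16, adjusted p = 0.0425). Tgtp2 (-1.76 ± 0.40, adjusted p = 0.0618), Irgm1 (-0.73 ± 0.17, adjusted p = 0.0648), Gbp6 (-1.37 ± 0.35, adjusted p = 0.0792) and Gbp7 (-0.75 ± 0.20, adjusted p = 0.0845) also did not overlap. Igtp (-1.25 ± 0.34, adjusted p = 0.0921), Gbp3 (-0.86 ± 0.29, adjusted p = 0.143) and Iigp1 (-1.09 ± 0.46, adjusted p = 0.21) overlapped by 1 or more mice. DESeq2 called 6 of the 9 (Gbp2, Gbp6, Gbp7, Igtp, Irgm1 and Irgm2), and limma's voom called none, Gbp2 included. The 0.312% of all genes called is edgeR's, and no such share is given for DESeq2.

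Set against the untreated wildtype mean of 6 mice, treated Irf1-/- mutants had 23.3% of Gbp2, 60.1% of Gbp6, 66.5% of Tgtp2 and 73.0% of Gbp7. The shares of Irgm2 (81.7%), Irgm1 (84.7%), Igtp (85.7%), Iigp1 (86.6%) and Gbp3 (94.0%) were higher. In treated mutants Gbp2 was the 1 gene of 9 for which every mouse was below every untreated wildtype mouse. It was also the 1 gene for which all 6 Irf1-/- mice were below all 9 wildtype mice. No share over all genes is given for these counts, and they are a description. The untreated wildtype sets themselves differed little. Set 2 over set 1 had log2 FC from -0.31 (Gbp7, adjusted p = 0.209) to 0.09 (Irgm1), none was called (DESeq2 also 0) and 1 of 10 was at an unadjusted p under 0.05, against 0.0644% and 17.2% of all genes.

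The genes moved together between mice of the same group. Over 15 libraries the 36 pairs among the 9 genes had a median Pearson r of 0.881 (0.736 to 0.968) for log2 CPM, and 0.781 (0.46 to 0.962) after each group's mean was taken out. These correlations share libraries and scaling and are given as a description. In each of the 5 groups the mouse numbered 2 had the highest mean over the 9 genes, by 0.072, 0.35, 0.28, 0.59 and 0.39 on the log2 scale above its group in control set 1, control set 2, untreated Irf1-/-, treated wildtype and treated Irf1-/- mice. Summed T and NK markers (3 genes) were also highest in mouse 2 in 4 of 5 groups, and so were summed macrophage and monocyte markers. Their part was not tested. Treated wildtype mouse 1 had the lowest deviation of any mouse, -0.59, with 0 of 9 genes above the group mean.

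Genes outside the 2 families with the most similar profile to the mean of the 9 were Oasl2, an interferon-induced antiviral protein (r = 0.945 over 15 libraries, 0.69 within groups), and Psmb8, an immunoproteasome subunit (r = 0.94 and 0.812). Irf1 itself came next (r = 0.934 and 0.674), then Ftsjd2 (r = 0.928), an mRNA cap methyltransferase, Irf7 and Parp9 (both 0.923), Hfe (0.919) and Tcirg1 (0.915). Stat2, a mediator of type I interferon signals, had r = 0.658 and 0.74. No p is given for these values.

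**Figure D4:**
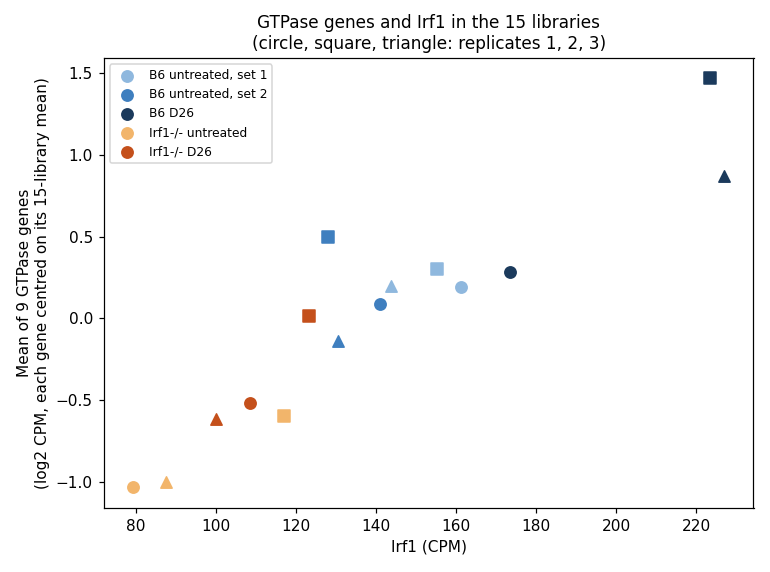
Mean over the 9 GTPase genes of log2 CPM centred on each gene (y axis) against Irf1 CPM (x axis) in the 15 libraries, coloured by group, with circle, square and triangle for replicates 1, 2 and 3. Irf1-/- mice are at the left and lower on the y axis, except treated mutant mouse 2 (0.015), which is above control set 2 mouse 3 (-0.14). Treated wildtype mouse 2 is highest at 1.47. Treated wildtype mouse 1, at 0.28, is within the range of the untreated wildtype mice on the y axis but above them in Irf1 (173 CPM).

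Stat2 overlapped between the genotypes, with log2 FC of -0.10 ± 0.11 at steady state and -0.25 ± 0.20 between treated mice. Of 18 genes of interferon gamma signalling tested, Irf1, receptors and kinases included, none was called by edgeR at steady state or between treated genotypes. At an unadjusted p under 0.05, 1 was lower at steady state, Irf1 itself, and 2 between treated genotypes, Irf1 among them. The median log2 FC was 0.02 and 0.00. DESeq2 and voom called none at steady state, and between treated genotypes DESeq2 called 1, Irf1 itself. Socs3, a feedback inhibitor of cytokine receptors, was the 1 called in treated over untreated mutants (log2 FC of 1.29 ± 0.14, adjusted p = 0.00665). Its mean also rose in wildtype mice, from 8.96 CPM in control set 1 to 19.3 CPM at D26. There it was called by DESeq2 but not by edgeR or voom. A difference between the responses was called for no gene of this list.

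The list of other interferon-inducible GTPases held further Gbp and IRG genes, Mx genes and very large inducible GTPases. At steady state, of 10 tested none was called by edgeR, DESeq2 or voom, 2 were lower at an unadjusted p under 0.05, and the median log2 FC was 0.00. Gbp5, an inflammasome partner, had a log2 FC of -0.46 ± 0.20 (adjusted p = 0.463) and Gbp9 -0.49 ± 0.19 (adjusted p = 0.391). Gm12185, whose promoter stretch has the GAS and IRF element in the layout of Tgtp2, was at 42.7 CPM in control set 2 and 43.5 CPM in untreated Irf1-/- mutants (log2 FC of 0.03 ± 0.11, adjusted p = 0.968). Its log2 FC was -0.01 ± 0.12 between treated genotypes and 0.02 ± 0.10 in treated wildtype mice. Irgq, 9930111J21Rik1, 9930111J21Rik2, Gm4951, Gm5431, F830016B08Rik and Gm8979 had log2 FC between -0.18 and 0.25 at steady state. Between treated genotypes none of 10 tested was called by edgeR or voom. At an unadjusted p under 0.05, 1 was higher and 2 were lower. DESeq2 called 1 there, Gm8979, higher in mutants (mean of 188 CPM against 99.1 CPM in wildtype mice).

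In wildtype mice at D26, Mx1, an antiviral GTPase, had a log2 FC of 1.13 ± 0.29 (adjusted p = 0.0457), Gbp10 one of 0.79 ± 0.29 (adjusted p = 0.116) and Gm8979, a member of the very large inducible GTPases, one of -1.69 ± 0.21 (adjusted p = 0.0122). Mx1 was at 4.27, 1.94 and 3.99 CPM in control set 1 and at 6.19, 9.22 and 6.87 CPM at D26, so it passed the filter on low values through the treated mice only and had to be higher in them. None of the 13 genes of this list tested there was called by edgeR or voom, DESeq2 called Mx1 and Gm8979, and 4 were higher and 1 lower at an unadjusted p under 0.05. Many Gbp and IRG genes have near-identical relatives, such as Tgtp1 beside Tgtp2 and the 9930111J21Rik pair. How reads that match several of them were counted is not given in the sources used here, so values of single paralogs are uncertain.

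Of 18 interferon gamma targets outside these families tested at steady state, 8 were called downregulated (median log2 FC of -0.60). At an unadjusted p under 0.05, 10 were lower. Between treated genotypes the counts were 8 and 12 of 18 (median -0.90). All genes had 0.318% called and 5.23% lower at an unadjusted p under 0.05 at steady state. Between treated genotypes these shares were 0.312% and 10.6%. Psmb10, an immunoproteasome subunit, had log2 FC of -1.61 ± 0.077 (adjusted p = 1.99e-05) untreated and -2.30 ± 0.12 (adjusted p = 0.000126) at D26. Tapbp (tapasin), which loads peptides onto MHC class I, had -1.05 ± 0.075 (adjusted p = 0.000133) and -1.37 ± 0.11 (adjusted p = 0.000614). Psme2, a proteasome activator, fell by 0.85 on the log2 scale untreated (adjusted p = 0.000143), and Upp1, uridine phosphorylase, by 2.94 on that scale at D26 (adjusted p = 0.00112). The list was written with earlier results of these data known, so its direction is not independent evidence.

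Type I interferon targets had 2 of 21 called lower at steady state (6 by DESeq2, median log2 FC of -0.31). Between treated genotypes 1 of 20 was called lower (9 by DESeq2, median -0.61). All genes had 0.318% and 0.312% called lower. At an unadjusted p under 0.05, 11 of 21 and 13 of 20 were lower, against 5.23% and 10.6% of all genes. Ddx60, an antiviral helicase, had log2 FC of -2.32 ± 0.22 (adjusted p = 0.000691) and -3.11 ± 0.39 (adjusted p = 0.00735), and Zbp1, a nucleic acid sensor of necroptosis, -1.81 ± 0.19 (adjusted p = 0.00131) at steady state. Zbp1 passed the filter on low values through the wildtype mice only (5.02 to 6.41 CPM, against 1.42 to 1.85 CPM), so it had to be lower in the mutants. Among 19 genes that act with Gbp and IRG proteins at vacuoles and inflammasomes, none was called by edgeR, DESeq2 or voom at steady state (2 were lower at an unadjusted p under 0.05) and 1 between treated genotypes. It was Gsdmd, the pore-forming gasdermin D, with log2 FC of -0.80 ± 0.10 (adjusted p = 0.00639) at D26 and -0.41 ± 0.079 (adjusted p = 0.0373) untreated. Casp1, which cleaves it, had -0.41 ± 0.071 (adjusted p = 0.0248) untreated and -0.38 ± 0.094 (adjusted p = 0.0712) at D26.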

How the data were processed

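RNA from distal colon was depleted of rRNA, prepared as stranded libraries and sequenced as 50 bp pairs. Counts of reads on each gene were deposited in 3 tables (12643, 12588 and 12692 genes, 12370 in all 3). Every listed gene had at least 5 CPM in 3 or more libraries of its table. The submitters' processing notes name TopHat2 2.0.9, Bowtie 1.0.0, featureCounts, edgeR and mm9, with no settings. The authors' CPM, log2 fold changes, p-values and test scores were not used. Counts of the untreated Irf1-/- libraries were identical in 2 tables and used once.

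Counts were scaled with TMM and fitted with edgeR 4.0.16 (R 4.3.3), each pair of groups alone and 12 libraries for the interaction. Log2 CPM for profiles had a prior count of 2. Fits were tested on simulated data. Exon length and GC content came from GENCODE M21 (merged exons), and promoter sequences from RefSeq. Alternatives used DESeq2 1.42.0, limma 3.58.1 (voom), RLE size factors, a filter of 10 CPM, 1 fit of all 15 libraries, other control sets, GC correction, a replicate block, leaving out each mouse and an adjusted p under 0.05. Log2 Xist as a covariate and the block with GC correction were added after seeing the data. Python 3.11.15, pandas 2.3.3, numpy 2.4.6 and matplotlib 3.10.9 were used.

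Genes named were the 10, Irf1, Stat2, other genes of the families, up to 3 genes with the smallest p of each other list and the 8 genes of most similar profile. The genes, lists and tests were chosen with earlier results of these data known. Socs3 and the read ratios were chosen after seeing values. Sequences of Gbp4, Gbp6 and Iigp1 were not used here. One gene named by this rule is not reported here.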

Additional observations from a re-analysis of the deposited data

How the results depend on the processing

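With 3 mice a group, 1 mouse could decide a call. Of the 10 genes, 2 were called lower at steady state. DESeq2 called 5, control set 1 as controls 5, both sets 4, an adjusted p under 0.05 gave 5, and the 10 CPM filter and 1 fit of all 15 libraries 1 each. In treated wildtype over untreated mice none was called, 1 by DESeq2 (Igtp) and 1 with all 15 libraries (Gbp2). In treated over untreated mutants none was called, 1 by DESeq2 (Tgtp2). Between treated genotypes 1 was called, 6 by DESeq2, 0 by voom, 3 with all 15 libraries and 2 at an adjusted p under 0.05. Leaving out 1 mouse gave 1 to 2 calls at steady state, 0 to 4 in wildtype mice and 0 to 1 between treated genotypes. The cause of these differences was not tested. Shares of all genes called are not given for these alternatives. The interaction and the comparison of the control sets had 0 calls under every alternative run.

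Over all genes the replicate numbers did not pair the mice (correlations of same-numbered deviations from -0.222 to 0.252), and the labels give no shared origin. Over the GTPase genes alone the correlations were from -0.499 to 0.705, and above 0.1 for all 3 numbers in treated over untreated wildtype mice, between treated genotypes and between control sets. With the replicate block, and with the block and GC correction, the count was 3 and 3 at steady state, 1 and 1 in treated mutants (Tgtp2), and 0 and 0 between treated genotypes, with no other change of a count.

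At steady state and between treated genotypes no gene changed sign. In the interaction Iigp1 was -0.045 with GC correction, and between control sets Gbp2 was -0.019 (voom), -0.017 (block), -0.015 (block with GC correction) and -0.034 (Xist). Leaving out 1 mouse, signs changed in these ranges of log2 FC. They were -0.055 to 0.31 for Gbp7 in wildtype mice, and -0.068 to 0.51 for Gbp6 and -0.041 to 0.21 for Irgm2 in mutants. In the interaction they were -0.48 to 0.11 for Gbp3, -0.72 to 0.095 for Gbp6, -0.17 to 0.95 for Iigp1 and -0.097 to 0.78 for Tgtp2. Between control sets they were -0.18 to 0.17 for Gbp2, -0.36 to 0.10 for Gbp3, -0.28 to 0.13 for Gbp4, -0.10 to 0.25 for Gbp6, -0.033 to 0.18 for Irgm1, -0.091 to 0.044 for Irgm2, -0.56 to 0.086 for Iigp1 and -0.25 to 0.28 for Tgtp2.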
